A study of Mus musculus with 69 samples.

Results

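The 9 genes described here belong to the tumour necrosis factor (TNF) superfamily of ligands and receptors and were taken by name from the 24309 genes of the count tables. They comprise 5 ligands (Lta, Ltb, Tnf, Tnfsf8 and Tnfsf10) and 4 receptors (Tnfrsf18, Tnfrsf4, Tnfrsf9 and Cd27). RNA-seq libraries were made from T cells of mice with 3 genotypes: WT (Stat5a+/+ Stat5b+/+), AAB (Stat5a-/- Stat5b+/-, in which 1 Stat5b allele is left) and BBA (Stat5a+/- Stat5b-/-, in which 1 Stat5a allele is left). CD8+ T cells were sorted from lymph nodes and spleens, pooled, as naive cells (Tnv; CD44low CD62Lhigh), central memory cells (Tcm; CD44high CD62Lhigh) and effector memory cells (Tem; CD44high CD62Llow). They were taken with no cytokine (NC), with IL-7 (Tnv and Tcm only) or with IL-15, which gives 8 conditions with 2 libraries per genotype. Naive CD4+ T cells were taken with NC or IL-7 in 2 or 3 libraries per group. The mice were 8 to 16 weeks old, and the deletions are carried by all of their cells, not by T cells alone. IL-7 and IL-15 were given at 10 ng/ml for 12 to 18 h. By the study's methods the NC cells were processed straight after sorting, whereas the sample descriptions give a culture of 12 to 16 h for every library, so an effect of the cytokine and one of the culture cannot be told apart in a comparison with NC. A further 4 libraries came from cells labelled as activated CD8+ T cells of AAB mice, which were stimulated through CD3 and CD28 for 24 h, transduced with an empty retroviral vector or with one that encodes a constitutively active STAT5A (CA-STAT5A), and kept with IL-2 for 48 h.

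TNF superfamily ligands are mostly trimeric proteins at the cell surface or shed from it, and their receptors recruit TRAF adaptor proteins or death domain proteins, which lead to NF-κB, MAP kinase or caspase activation. TNF and lymphotoxin-α (encoded by Tnf and Lta) share receptors, and lymphotoxin-α also pairs with lymphotoxin-β (Ltb) on the cell surface in a complex that organises lymphoid tissue. Tnfsf8 encodes CD30 ligand and Tnfsf10 encodes TRAIL, a ligand of death receptors. Tnfrsf18 encodes GITR, Tnfrsf4 encodes OX40, Tnfrsf9 encodes 4-1BB and Cd27 encodes CD27, which are costimulatory receptors of T cells. STAT5A and STAT5B are the closely related transcription factors that IL-2, IL-7 and IL-15 activate, and they bind DNA at the GAS motif TTCNNNGAA.

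In the mouse annotation (GRCm38, GENCODE), Lta (chr17:35203165-35205351, minus strand), Tnf (chr17:35199381-35202007, minus strand) and Ltb (chr17:35194439-35196320, plus strand) lie next to each other within 10913 bases, with 1157 bases between Lta and Tnf. Tnfrsf18 (chr4:156026164-156028895, plus strand) and Tnfrsf4 (chr4:156013843-156016612, plus strand) are 9551 bases apart. Tnfrsf9 (chr4:150914562-150946102, plus strand) and Tnfsf8 (chr4:63831308-63861347, minus strand) are also on chromosome 4, Tnfsf10 (chr3:27317028-27342427, plus strand) is on chromosome 3 and Cd27 (chr6:125232622-125237010, minus strand) is on chromosome 6. On the opposite strand, Tnfrsf18 overlaps Gm16008, Tnfrsf9 overlaps Camta1 and Cd27 overlaps Vamp1, and since no source used here states that reads were counted by strand, reads of these pairs may not be separated.

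All 9 genes had at least 1 RefSeq start (GRCm38.p6). The 250 bases before the start are shown for the 4 genes whose level differed between genotypes in the most conditions, Lta, Tnf, Tnfsf8 and Tnfrsf18, 5′ to 3′ on the gene's own strand. Capitals mark the GAS motif, which is its own reverse complement, so 1 search covers both strands.
Lta, chr17:35205352-35205601, minus strand: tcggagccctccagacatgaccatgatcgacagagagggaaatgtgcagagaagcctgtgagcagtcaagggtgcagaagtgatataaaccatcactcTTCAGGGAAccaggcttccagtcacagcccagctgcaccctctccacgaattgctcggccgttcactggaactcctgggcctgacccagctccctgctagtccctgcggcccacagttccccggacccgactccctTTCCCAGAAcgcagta
Tnf, chr17:35202008-35202257, minus strand: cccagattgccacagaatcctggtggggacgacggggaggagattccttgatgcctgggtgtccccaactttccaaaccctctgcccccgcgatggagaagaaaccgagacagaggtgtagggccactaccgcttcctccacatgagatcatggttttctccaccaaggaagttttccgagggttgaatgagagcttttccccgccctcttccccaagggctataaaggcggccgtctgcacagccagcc
Tnfsf8, chr4:63861285-63861534, minus strand: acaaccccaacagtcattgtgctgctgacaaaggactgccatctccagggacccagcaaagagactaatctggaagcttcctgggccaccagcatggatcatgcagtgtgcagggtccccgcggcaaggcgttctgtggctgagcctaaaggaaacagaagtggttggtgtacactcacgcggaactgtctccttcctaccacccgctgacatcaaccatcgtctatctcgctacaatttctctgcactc
Tnfrsf18, chr4:156026072-156026321, plus strand: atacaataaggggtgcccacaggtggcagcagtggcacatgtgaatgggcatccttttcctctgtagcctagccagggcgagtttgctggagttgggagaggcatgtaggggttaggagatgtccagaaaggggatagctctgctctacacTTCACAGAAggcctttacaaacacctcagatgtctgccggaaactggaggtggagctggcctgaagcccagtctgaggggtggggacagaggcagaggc
Lta held the motif at 152 and 16 bases before its start and Tnfrsf18 at 99 bases, while the windows of Tnf and Tnfsf8 held none. Of the other members, Ltb held 1 at 172 bases and the second start of Tnfrsf9 held 1 at 136 bases, and Tnfsf10, Tnfrsf4 and Cd27 held none. The motif was present in 7.02% of the 32851 RefSeq windows of this length. A match describes these letters only and was not tested as a binding site.

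The 48 CD8 libraries held 5926139 to 25612758 counts each, the 15 of CD4+ cells 6705004 to 34118295 and the 4 of transduced cells 11020965 to 16516525. Levels are given as CPM, counts relative to the library total after scaling by trimmed means (TMM) within each table. Stat5a was at 0.981 to 5.13 CPM in AAB and 32.2 to 110.02 CPM in WT CD8 libraries. Stat5b was at 49.0 to 87.4 CPM in BBA against 167 to 360.3 CPM in WT, so Stat5b transcripts were still counted in the BBA libraries and their counts do not by themselves show the loss of the gene. Cd8a was at 712 to 2071 CPM in the CD8 table and Cd4 at 599 to 1189.7 CPM in the CD4 table. In 1 library, WT Tnv with IL-15 replicate 2, Cd4 was at 242 CPM and Foxp3 at 185 CPM, against at most 11.8 and 23.8 CPM in the other 47 CD8 libraries. The WT Tcm libraries with IL-7 also stood apart, with myeloid markers summing to 708 and 361 CPM. Sex, read from sex-linked genes, followed the condition: the Tnv libraries with IL-7 were all male and those with NC or IL-15 all female, and all CD4 libraries were male. In Tcm with IL-7 both WT libraries were male, while AAB and BBA each had 1 male and 1 female library, and all other Tcm and Tem libraries were female. Each vector of the transduced cells had 1 male and 1 female library. The study's methods describe the replicates as biological, from separate mice, while the labels do not tie a library to a mouse.

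Scaled by exon length, the members covered a wide range of levels in the 16 WT CD8 libraries. The median was 535 CPM per kb for Ltb, 111 for Cd27, 72.1 for Tnfrsf18, 29.3 for Tnfsf8, 16.2 for Tnf, 14.5 for Lta, 9.57 for Tnfsf10, 5.72 for Tnfrsf4 and 2.89 for Tnfrsf9. The ranges of Tnf (4.66 to 47.7 CPM per kb) and Lta (8.81 to 61.3) overlapped over most of their width, and those of Tnfrsf4 (3.25 to 21.5) and Tnfrsf9 (0.880 to 6.67) in part, whereas the lowest Ltb value (394 CPM per kb) was above the highest Cd27 value (153). Over all 48 CD8 libraries Ltb stayed within 579 to 956 CPM and Cd27 within 162 to 357 CPM. As the ratio of the highest to the lowest library, the widest ranges were those of Tnf (41.5-fold, 1.88 to 78.1 CPM), Lta (18.6-fold, 4.55 to 84.8 CPM) and Tnfrsf9 (15.4-fold, 1.83 to 28.1 CPM).

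**Figure D1:**
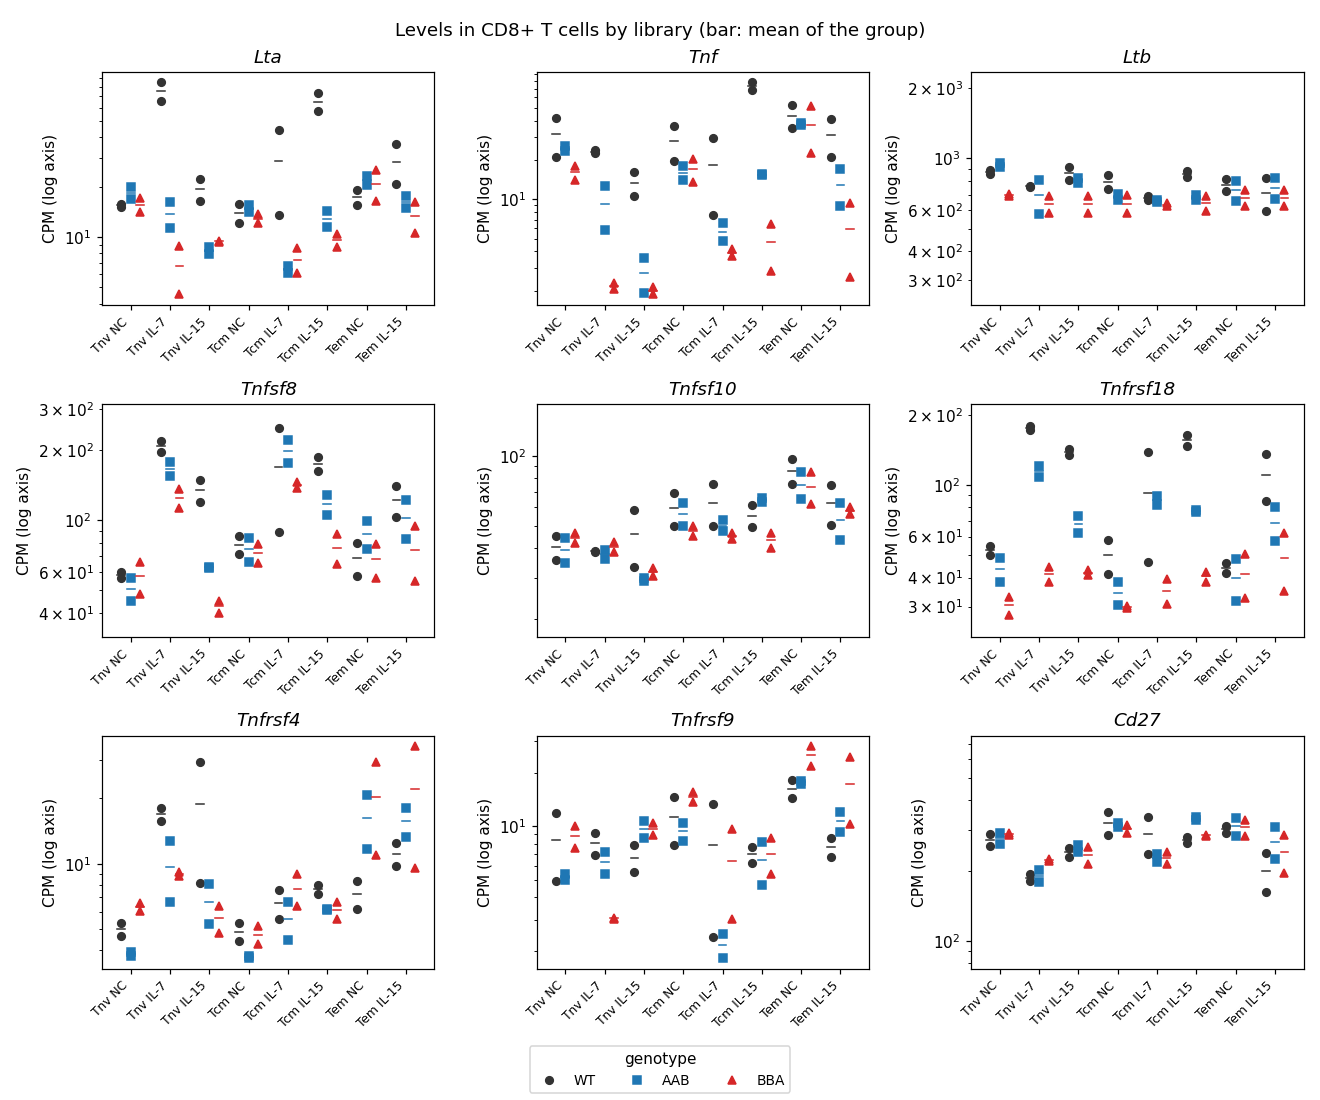
Level of each gene in CPM (log axis) in the 48 CD8 libraries, by cell state and cytokine on the horizontal axis and by genotype (circles WT, squares AAB, triangles BBA), with a short line at the mean of each pair. With cytokine the WT libraries lie above the BBA libraries for Lta, Tnf and Tnfrsf18 in every condition, and for Tnfsf8 in all but Tcm with IL-7. In the fits that do not pair same-numbered libraries, no member was called between genotypes in Tcm with IL-7 or Tem with IL-15. Ltb and Cd27 vary least, by 1.65- and 2.21-fold over all libraries.

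The comparison of WT with BBA asks how far the members change when both Stat5b alleles and 1 Stat5a allele are lost together. The parts of Stat5b and Stat5a in such a change cannot be told apart in it. In CD8+ T cells 4 members were higher in WT than in BBA in at least 1 condition: the cytokines Lta and Tnf, Tnfsf8, and the receptor Tnfrsf18. The value after ± is the SE throughout. A gene was called when its level differed by more than 1.5-fold with an adjusted p under 0.05 (edgeR's quasi-likelihood test, Benjamini-Hochberg adjustment over all genes tested). Of 72 pairs of member and condition, 70 passed the filter on low counts, 11 were called, and all 11 were higher in WT. Over all genes tested, the share called in either direction was 2.76% in Tnv with NC, 2.7% after IL-7 and 9.43% after IL-15, 0.286%, 3.1% and 23.7% in Tcm, and 0.207% with NC and 1.82% with IL-15 in Tem. The members called were 1 of 8 tested in Tnv with NC, 3 of 9 after IL-7, 3 of 9 after IL-15, and 4 of 9 for Tcm with IL-15. None was called in Tcm with NC, Tcm with IL-7, Tem with NC or Tem with IL-15 in these fits, which do not pair libraries. With same-numbered libraries as a replicate block, 1522 of 10461 genes were called in Tem with IL-15. Among them Lta, Tnf, Tnfsf8 and Tnfrsf18 were higher and Tnfrsf9 lower in WT. Tnfrsf18 was higher in WT Tcm with NC (313 of 9802 genes called) and Tnfrsf4 lower in WT Tem with NC (347 of 10151). The labels do not say that same-numbered libraries share an animal or day. In these bulk samples, fewer cells that express a gene and less RNA per cell cannot be told apart.

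Lta, the gene of lymphotoxin-α, was at 84.8 and 65.4 CPM in WT Tnv with IL-7 and at 4.55 and 8.88 CPM in BBA. The WT libraries were far above the BBA libraries, with a log2 fold change of 3.47 ± 0.36 (SE, adjusted p = 0.00967). Without WT replicate 1 or 2 the adjusted p was 0.11 or 0.0616, at log2 values of 3.08 to 3.998 over all libraries left out. In Tcm with IL-15, Lta stood at 73.3 and 56.9 CPM in WT and 10.5 and 8.73 CPM in BBA, a log2 difference of 2.48 ± 0.17 (SE, adjusted p = 0.000153) that was called without each of the libraries in turn. With NC the genotypes overlapped, with 15.1 and 15.9 CPM in WT and 17.1 and 14.2 CPM in BBA Tnv. Lta in Tnv with IL-15 (22.5 and 16.4 CPM against 9.52 and 9.41 CPM) gave a log2 difference of 0.73 ± 0.24 (SE, adjusted p = 0.112), which did not pass.

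Tnf, which lies beside Lta, was at 22.4 and 23.8 CPM in WT and 2.28 and 2.07 CPM in BBA Tnv with IL-7, a log2 difference of 3.38 ± 0.37 (SE, adjusted p = 0.0123). This call was lost when any 1 of the 4 WT and BBA libraries was left out, with an adjusted p of 0.0732 to 0.132 and log2 values of 3.29 to 3.48. In Tnv with IL-15 Tnf was at 16.1 and 10.5 CPM in WT and 2.13 and 1.88 CPM in BBA. The groups did not overlap and the log2 difference was 2.42 ± 0.48 (SE, adjusted p = 0.0209), lost without WT replicate 1 (adjusted p = 0.0536), BBA replicate 1 (0.0819) or BBA replicate 2 (0.0868). The largest difference of any member was that of Tnf in Tcm with IL-15, where WT held 78.1 and 69.0 CPM and BBA 6.52 and 2.84 CPM, a log2 difference of 3.74 ± 0.29 (SE, adjusted p = 0.000258) that was called without each library in turn. In Tem with IL-15 the values were 40.7 and 20.9 CPM in WT and 9.33 and 2.55 CPM in BBA, and the log2 difference of 2.36 ± 0.56 (SE, adjusted p = 0.109) did not pass.

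Tnfsf8, the gene of CD30 ligand, was at 149 and 120.2 CPM in WT and 40.2 and 45.1 CPM in BBA Tnv with IL-15. The log2 difference of 1.36 ± 0.13 (SE, adjusted p = 0.00299) was called without each library in turn. In Tcm with IL-15 it was at 188 and 162 CPM in WT and 86.96 and 64.9 CPM in BBA, a smaller log2 difference of 0.93 ± 0.16 (SE, adjusted p = 0.00429) that was also called without each library. In Tnv with IL-7 Tnfsf8 was high in both genotypes, at 219 and 197 CPM in WT and 136 and 113 CPM in BBA, and the log2 difference of 0.71 ± 0.14 (SE, adjusted p = 0.052) lay just outside the threshold.

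Tnfrsf18, the gene of GITR, was the member called in the most conditions. With NC, WT Tnv held 54.5 and 50.1 CPM and BBA 33.1 and 27.7 CPM, a log2 difference of 0.78 ± 0.14 (SE, adjusted p = 0.0315). This call was lost without WT replicate 1 (adjusted p = 0.179), WT replicate 2 (0.105) or BBA replicate 2 (0.112), and in 1 fit over all CD8 libraries (0.303). With IL-7 it stood at 179 and 171 CPM in WT and 44.3 and 38.3 CPM in BBA Tnv, a log2 difference of 2.06 ± 0.13 (SE, adjusted p = 0.00252). With IL-15 the values were 142 and 135 against 41.0 and 43.0 CPM in Tnv (1.42 ± 0.15, adjusted p = 0.0036) and 163 and 147 against 42.4 and 38.4 CPM in Tcm (1.66 ± 0.09, adjusted p = 9.16e-05). These 3 calls with cytokine held without each library in turn. GITR is also known from regulatory T cells, whose markers summed to 40.3 and 342 CPM in the WT Tnv libraries with IL-15. The log2 difference in that condition was 1.34 to 1.49 with each library, replicate 2 included, left out in turn. The part of regulatory T cells in the Tnfrsf18 difference was not tested. In Tem with IL-15 Tnfrsf18 was at 135 and 85.1 CPM in WT and 61.98 and 35.0 CPM in BBA, with a log2 difference of 1.15 ± 0.22 (SE, adjusted p = 0.0671) that did not pass.

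No other member was called between WT and BBA in CD8+ T cells without the replicate block. Ltb in Tnv with NC was at 854 and 892 CPM in WT and 690.1 and 707 CPM in BBA, so the groups did not overlap, but the log2 difference of 0.31 ± 0.06 (SE, adjusted p = 0.042) was under 1.5-fold. Cd27 differed in the other direction in Tcm with IL-15, at a log2 value of -0.35 ± 0.08 (SE, adjusted p = 0.0137), also under 1.5-fold. Tnfsf10, the gene of TRAIL, had log2 differences between -0.14 and 0.25 over the 8 conditions. Tnfrsf9 in Tem with NC was at 14.4 and 18.2 CPM in WT and 28.1 and 21.8 CPM in BBA, a log2 difference of -0.72 ± 0.17 (SE, adjusted p = 0.203). Tnfrsf4, whose levels were among the lowest, did not pass the filter in Tnv and Tcm with NC. In WT Tnv with IL-15 it was at 8.15 and 29.3 CPM, the high value being that of the library with Foxp3 at 185 CPM, and the part of those cells in the Tnfrsf4 level was not tested.

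The WT Tcm libraries with IL-7 differed widely from each other. Replicates 1 and 2 held 13.7 and 43.9 CPM of Lta, 7.64 and 29.2 CPM of Tnf, 89.5 and 249 CPM of Tnfsf8 and 46.7 and 138 CPM of Tnfrsf18, and for all 4 genes replicate 2 was the higher. For Lta both WT libraries were above the BBA libraries (6.12 and 8.59 CPM), with a log2 difference of 1.77 ± 0.57 (SE, adjusted p = 0.123). The groups did not overlap either for Tnf (4.18 and 3.66 CPM in BBA; 2.05 ± 0.65, adjusted p = 0.122) or Tnfrsf18 (30.8 and 39.3 CPM in BBA; 1.20 ± 0.48, adjusted p = 0.186), and none of the 9 members passed at this precision. Sex and genotype partly overlap here, since both WT libraries were male. Over all genes edgeR called 310 between WT and BBA, and with a sex term 0, with 1743 at an unadjusted p under 0.05, while DESeq2 without a sex term called 1540.

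**Figure D2:**
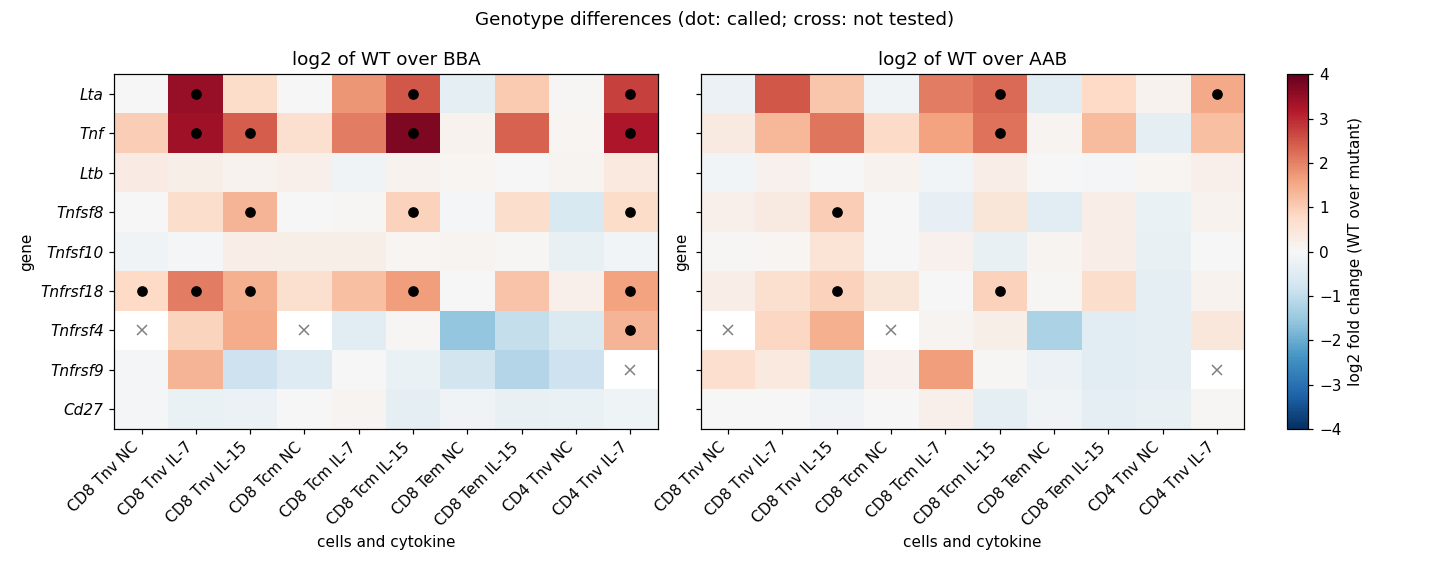
Log2 fold change of WT over BBA (left) and WT over AAB (right) for the 9 genes in rows and the 8 CD8 and 2 CD4 conditions in columns, with red for higher in WT, a dot for a call and a cross where the gene was not tested. Every dot is red, and the dots fall in Lta, Tnf, Tnfsf8, Tnfrsf18 and, in CD4+ cells, Tnfrsf4.

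Between WT and AAB, where 1 Stat5b allele is left, 5 of the 70 tested pairs were called in CD8+ T cells, all higher in WT and all with IL-15. This comparison uses the same WT libraries as the one with BBA. Over all genes the share called was 0.167%, 0.268% and 0.893% in Tnv with NC, IL-7 and IL-15, 0.0408%, 0.06% and 4.27% in Tcm, and 0.0197% and 0.0191% in Tem with NC and IL-15. In Tcm with IL-15, AAB held 11.6 and 14.3 CPM of Lta, 15.2 and 15.5 CPM of Tnf and 76.4 and 77.9 CPM of Tnfrsf18, all below both WT libraries. The log2 differences were 2.26 ± 0.16 (SE, adjusted p = 0.00256), 2.18 ± 0.25 (SE, adjusted p = 0.00581) and 0.93 ± 0.08 (SE, adjusted p = 0.00465), and all 3 were called without each library in turn, while that of Tnfrsf18 was lost in 1 fit over all CD8 libraries (adjusted p = 0.0562). In Tnv with IL-15, AAB held 62.6 and 62.9 CPM of Tnfsf8 and 62.02 and 73.6 CPM of Tnfrsf18. The log2 differences from WT were 0.997 ± 0.13 (SE, adjusted p = 0.0324) and 0.92 ± 0.14 (SE, adjusted p = 0.0417). The Tnfsf8 call was lost without WT replicate 1 or either AAB library (adjusted p = 0.0647 to 0.321), that of Tnfrsf18 without any 1 of the 4 WT and AAB libraries (0.0736 to 0.335), and both in 1 fit over all CD8 libraries (0.0652 and 0.0947). Lta in Tnv with IL-7 was at 11.4 and 16.2 CPM in AAB, far below WT, yet its log2 difference of 2.48 ± 0.34 (SE, adjusted p = 0.0577) lay just outside the threshold.

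A direct comparison of AAB with BBA called 3 of the 70 tested pairs, each higher in AAB. The share of all genes called was 0.531%, 0.149% and 0.0702% in Tnv with NC, IL-7 and IL-15, 0.0408%, 0.0899% and 5.87% in Tcm, and 0.0197% and 0.00956% in Tem with NC and IL-15. Tnfrsf18 in Tnv with IL-7 was at 120.4 and 108 CPM in AAB, between the WT and the BBA values, and differed from BBA by 1.42 ± 0.13 (SE, adjusted p = 0.0228) on the log2 scale. The call was lost without either WT or either BBA library (adjusted p = 0.0943 to 0.124). In Tcm with IL-15 the differences were 1.55 ± 0.29 (SE, adjusted p = 0.0255) for Tnf and 0.73 ± 0.09 (SE, adjusted p = 0.00714) for Tnfrsf18. Without AAB replicate 1 or 2 the adjusted p for Tnf was 0.0734 or 0.101, and without AAB replicate 2 that for Tnfrsf18 was 0.0501. In 1 fit over all CD8 libraries the adjusted p was 0.116 for Tnf and 0.184 for Tnfrsf18. Lta did not separate AAB from BBA there (11.6 and 14.3 against 10.5 and 8.73 CPM), with a log2 difference of 0.23 ± 0.17 (SE, adjusted p = 0.419).

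The response of WT cells was measured as cytokine over NC within each state. In CD8+ T cells 7 of 45 tested pairs were called, all higher with cytokine. The share of all genes called was 20.2% for IL-7 and 6.18% for IL-15 in Tnv, 0.355% for IL-7 and 0% for IL-15 in Tcm, and 1.55% for IL-15 in Tem. In Tnv with IL-7, the log2 response was 2.34 ± 0.18 (SE, adjusted p = 0.000448) for Lta, 1.90 ± 0.12 (SE, adjusted p = 0.000253) for Tnfsf8, 1.81 ± 0.08 (SE, adjusted p = 0.000112) for Tnfrsf18 and 1.82 ± 0.56 (SE, adjusted p = 0.0432) for Tnfrsf4. The first 3 were called without each library in turn, and Tnfrsf4, at 5.32 and 4.65 CPM with NC and 15.7 and 18.04 CPM with IL-7, was lost without any 1 of these 4 libraries (adjusted p = 0.125 to 0.194). Here IL-7 and sex cannot be told apart, since the IL-7 libraries were male and the NC libraries female.

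With IL-15 the libraries were female on both sides, though IL-15 and the culture cannot be told apart. Tnfsf8 in WT Tnv went from 60.0 and 56.5 to 149 and 120.2 CPM, a log2 response of 1.25 ± 0.12 (SE, adjusted p = 0.0033). Tnfrsf18 rose from 54.5 and 50.1 to 142 and 135 CPM, by 1.45 ± 0.08 (SE, adjusted p = 0.00117), and was called without each library in turn. Without NC replicate 2 the adjusted p for Tnfsf8 was 0.0504. Tnf went the other way in Tnv with IL-15, at -1.20 ± 0.33 (SE, adjusted p = 0.0639), without passing. In Tem with IL-15 Tnfrsf18 rose by 1.48 ± 0.14 (SE, adjusted p = 0.0217), and the adjusted p was 0.063 or 0.0821 without NC replicate 1 or 2. In Tcm no member passed, and with IL-7 the cytokine and sex cannot be told apart there, since both WT libraries with IL-7 were male and both with NC female. Lta in Tcm with IL-15, at 15.9 and 12.2 CPM with NC and 73.3 and 56.9 CPM with IL-15, had a log2 response of 2.15 ± 0.52 (SE, adjusted p = 0.223). This fit also held the widely spread IL-7 libraries of WT Tcm, and it called 0 of 11565 genes for IL-15 with edgeR, against 1381 at an unadjusted p under 0.05. DESeq2 called 305 genes. Cd27 in WT Tnv with IL-7 was lower than with NC by under 1.5-fold, at -0.47 ± 0.09 (SE, adjusted p = 0.0106).

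Whether the response differed between genotypes was tested as the response of BBA minus that of WT. Of 54 pairs over both cell types 12 were called, and in all 12 the response was lower in BBA. The share of all genes called was 2.45% for Tnv with IL-7, 2.61% for Tnv with IL-15, 0.0487% for Tcm with IL-7, 7.8% for Tcm with IL-15, 0.00924% for Tem with IL-15 and 1.09% for CD4+ cells with IL-7. In Tnv with IL-7 the response of Lta differed by a log2 value of -3.47 ± 0.41 (SE, adjusted p = 0.00544), and BBA Lta itself went from 17.1 and 14.2 CPM with NC to 4.55 and 8.88 CPM with IL-7. Tnf (-2.40 ± 0.52, adjusted p = 0.0401) and Tnfrsf18 (-1.26 ± 0.20, adjusted p = 0.0143) were also called. Lta held without each of the 12 libraries. Tnf was lost without any of 10 of them, the AAB libraries with IL-7 being the exceptions (adjusted p = 0.054 to 0.124), and Tnfrsf18 without any of the 4 WT libraries or BBA NC replicate 1 (0.0504 to 0.0679). In 1 fit over all CD8 libraries the adjusted p was 0.0928 for Tnf and 0.115 for Tnfrsf18, and with edgeR's newer dispersion estimate that of Tnf was 0.0555. All 3 genotypes changed from female to male libraries here.

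With IL-15, the response of Tnfsf8 in Tnv differed in BBA by -1.37 ± 0.24 (SE, adjusted p = 0.021), and BBA Tnfsf8 was at 66.5 and 48.4 CPM with NC and 40.2 and 45.1 CPM with IL-15. It was lost without either WT NC library, BBA NC replicate 1 or BBA IL-15 replicate 1 (adjusted p = 0.0503 to 0.107) and in 1 fit over all CD8 libraries (0.107). In Tcm with IL-15 the responses of Lta (-2.48 ± 0.25, adjusted p = 0.00113), Tnf (-3.09 ± 0.53, adjusted p = 0.00796) and Tnfrsf18 (-1.04 ± 0.20, adjusted p = 0.0143) were lower in BBA. Lta and Tnf held without each library, and Tnfrsf18 was lost without WT IL-15 replicate 1 (0.0733) or BBA IL-15 replicate 2 (0.0737) and in the 1 fit (0.161). BBA Tnf went from 20.3 and 13.6 to 6.52 and 2.84 CPM, while WT Tnf went from 19.6 and 36.2 to 78.1 and 69.0 CPM. Without the replicate block no member was called in Tcm with IL-7, where the share of male libraries differed between genotypes, or in Tem with IL-15.

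For AAB, the response differed from that of WT in 2 of 54 pairs, both for Lta and both lower in AAB. The share of all genes called was 0.292% and 0.291% in Tnv with IL-7 and IL-15, 0.00974% and 0.128% in Tcm, 0% in Tem with IL-15 and 0.0188% in CD4+ cells with IL-7. The differences were -2.71 ± 0.40 (SE, adjusted p = 0.0252) in Tnv with IL-7 and -2.41 ± 0.24 (SE, adjusted p = 0.00707) in Tcm with IL-15. The first was lost without either NC library of any genotype or either WT library with IL-7 (adjusted p = 0.0531 to 0.157), and the second without WT IL-15 replicate 1 (0.0716) or AAB IL-15 replicate 1 (0.0827). Both comparisons use the WT responses already given. In Tem with IL-15 edgeR called 0 of 10826 genes, with 335 at an unadjusted p under 0.05, and DESeq2 called 2.

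**Figure D3:**
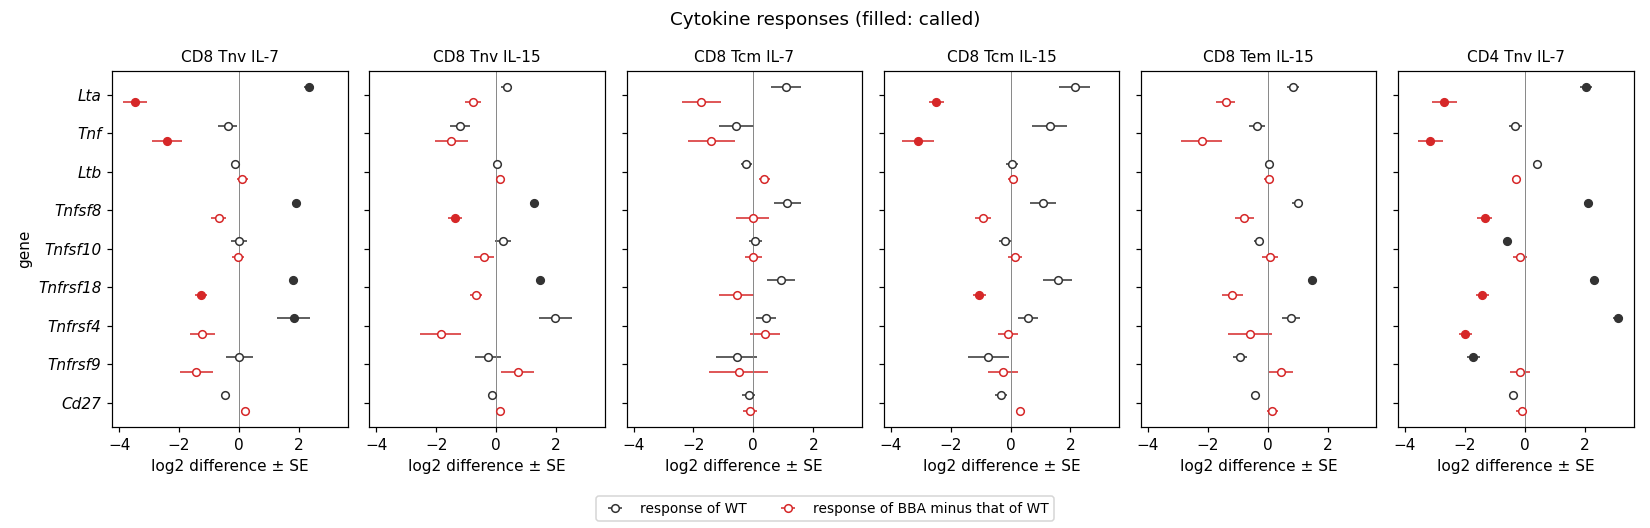
Log2 response of WT cells (dark points, cytokine over NC) and the response of BBA minus that of WT (red points) with standard errors, for the 9 genes in rows and 6 combinations of cell and cytokine in panels, with filled points for calls. The filled red points are all below 0, and they are at Lta, Tnf, Tnfsf8, Tnfrsf18 and, in CD4+ cells, Tnfrsf4.

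The effect of BBA with IL-15 was set against that with IL-7, by subtracting the IL-7 value of the log2 difference of WT over BBA from the IL-15 value. In Tnv 2 of 9 members were called, against 1% of all genes, and in Tcm none, against 0.126%. For Lta the value was -2.74 ± 0.43 (SE, adjusted p = 0.021), that is, a larger effect with IL-7. Tnfrsf9 had -2.19 ± 0.44 (SE, adjusted p = 0.049), with 9.18 and 6.90 CPM in WT and 3.04 and 3.06 CPM in BBA with IL-7 against 5.55 and 7.82 CPM in WT and 8.96 and 10.4 CPM in BBA with IL-15, so WT was the higher with IL-7 and the lower with IL-15. The Lta call was lost without WT IL-7 replicate 1, WT IL-15 replicate 2 or BBA IL-15 replicate 1 (adjusted p = 0.0648 to 0.115). That of Tnfrsf9 was lost without any of 10 of the 12 libraries, the AAB libraries with IL-7 being the exceptions (0.062 to 0.228), and in 1 fit over all CD8 libraries (0.196). Cytokine and sex cannot be told apart in Tnv, and in Tcm sex also differed between the WT and BBA libraries with IL-7.

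In naive CD4+ T cells with IL-7, WT exceeded BBA for 5 of the 8 members tested, Lta, Tnf, Tnfsf8, Tnfrsf18 and Tnfrsf4, against 5.55% of all genes. With NC none of 9 was called, against 1.11%. Both Tnfsf8 (50.7, 49.1 and 39.7 CPM in WT and 61.6 and 78.7 CPM in BBA; -0.59 ± 0.14, adjusted p = 0.128) and Tnfrsf9 (8.35, 9.55 and 7.34 CPM in WT and 13.2 and 16.4 CPM in BBA; -0.82 ± 0.19, adjusted p = 0.118) were higher in every BBA library than in every WT library with NC, without passing. Tnfrsf9 did not pass the filter with IL-7. Lta was at 83.4, 112 and 93.1 CPM in WT and 16.6, 11.9 and 14.6 CPM in BBA, a log2 difference of 2.73 ± 0.24 (SE, adjusted p = 0.000182). Tnf was at 24.7, 34.6 and 24.04 against 2.42, 3.65 and 2.83 CPM (3.22 ± 0.22, adjusted p = 5.15e-05). For both ligands every WT library lay above every BBA library. Tnfrsf18 was at 167, 219 and 188 against 63.9, 71.9 and 49.1 CPM (1.62 ± 0.15, adjusted p = 0.00022) and Tnfrsf4, the gene of OX40, at 66.4, 84.6 and 81.7 against 30.8, 31.1 and 26.8 CPM (1.37 ± 0.10, adjusted p = 8.69e-05). These 4 calls held without each library in turn. Tnfsf8 had the smallest difference, 0.74 ± 0.16 (SE, adjusted p = 0.0208), and was lost without WT replicate 1 or 2 or BBA replicate 1 or 3 (adjusted p = 0.0568 to 0.0761). Ltb differed by less than 1.5-fold, at 0.40 ± 0.07 (SE, adjusted p = 0.00572).

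Regulatory T cells are known for high GITR and OX40, and their 4 markers summed to 58.6, 110.5 and 79.6 CPM in WT and 61.7, 45.6 and 29.8 CPM in BBA CD4+ libraries with IL-7. One of the 4, Foxp3, was at 23.3, 31.0 and 20.2 CPM in WT and 18.4, 18.1 and 17.3 CPM in BBA, and another, Il2ra, which encodes an IL-2 receptor chain, at 23.1, 59.3 and 38.4 CPM in WT against 6.03, 9.09 and 2.74 CPM in BBA. Ikzf2 and Ctla4, the remaining markers, had no single direction. Together they were higher in the BBA library that summed to 61.7 CPM than in any WT library, but the other BBA libraries were not above all WT libraries. The sums of the groups overlapped, with 61.7 CPM in BBA against 58.6 CPM in WT. No marker of the list was at 0, and the part of the markers in the Tnfrsf18 and Tnfrsf4 differences was not tested. BBA replicate 3 also held 27.9 CPM of effector cell markers. The 4 calls above were also made without this library, and the part of effector cells in them was not tested.

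In AAB CD4+ cells against WT, 1 of 8 members was called with IL-7, Lta with 44.3 and 22.9 CPM in AAB and a log2 difference of 1.51 ± 0.26 (SE, adjusted p = 0.0363), and none with NC, against 0.628% and 0.374% of all genes. The Lta call was lost without any of the 3 WT libraries, the AAB library numbered 3 or BBA replicate 3 (adjusted p = 0.0667 to 0.129). Tnfrsf18 was at 187 and 161 CPM in AAB, within the WT range, and Tnfrsf4 at 59.1 and 53.8 CPM, below it. Against BBA, AAB was higher in 3 of 8 members with IL-7 (1.57% of all genes) and none with NC (0.0768%). These were Tnf (2.03 ± 0.24, adjusted p = 0.00323), Tnfrsf18 (1.48 ± 0.16, adjusted p = 0.00198) and Tnfrsf4 (0.92 ± 0.12, adjusted p = 0.00445), and all held without each library in turn.

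In WT CD4+ cells 6 of 9 members differed between IL-7 and NC, 4 higher and 2 lower with IL-7, against 16.8% of all genes. Both groups were male here, but IL-7 and the culture cannot be told apart. Tnfrsf4 had the largest response, from 10.4, 10.2 and 6.98 to 66.4, 84.6 and 81.7 CPM, a log2 value of 3.11 ± 0.16 (SE, adjusted p = 3.5e-06). Tnfrsf18 rose by 2.30 ± 0.12 (SE, adjusted p = 4.01e-06), Tnfsf8 by 2.101 ± 0.11 (SE, adjusted p = 4.01e-06) and Lta by 2.04 ± 0.20 (SE, adjusted p = 9.69e-05) on the log2 scale. Tnfrsf9, the gene of 4-1BB, went from 8.35, 9.55 and 7.34 to 2.50, 2.92 and 2.04 CPM (-1.72 ± 0.22, adjusted p = 0.000478), and Tnfsf10 from 43.2, 31.7 and 35.1 to 23.8, 24.1 and 24.1 CPM (-0.61 ± 0.12, adjusted p = 0.00513). The other 5 held without each library, while Tnfsf10 fell under 1.5-fold without NC replicate 1, at -0.48. Tnf did not pass in WT (-0.32 ± 0.21, adjusted p = 0.277).

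The IL-7 response of CD4+ cells was lower in BBA than in WT for 5 members. On the log2 scale the difference was -2.69 ± 0.43 (SE, adjusted p = 0.00537) for Lta, -3.15 ± 0.42 (SE, adjusted p = 0.00138) for Tnf, -1.35 ± 0.24 (SE, adjusted p = 0.0119) for Tnfsf8, -1.43 ± 0.22 (SE, adjusted p = 0.00404) for Tnfrsf18 and -1.99 ± 0.23 (SE, adjusted p = 0.000334) for Tnfrsf4. BBA Tnf went from 29.1 and 37.2 CPM with NC to 2.42, 3.65 and 2.83 CPM with IL-7. Without BBA NC replicate 2 the adjusted p was 0.0548 for Lta and 0.086 for Tnfsf8, and the other 3 held without each library. Tnfrsf9, which fell with IL-7 in WT, had a difference of -0.16 ± 0.34 (SE, adjusted p = 0.936).

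**Figure D4:**
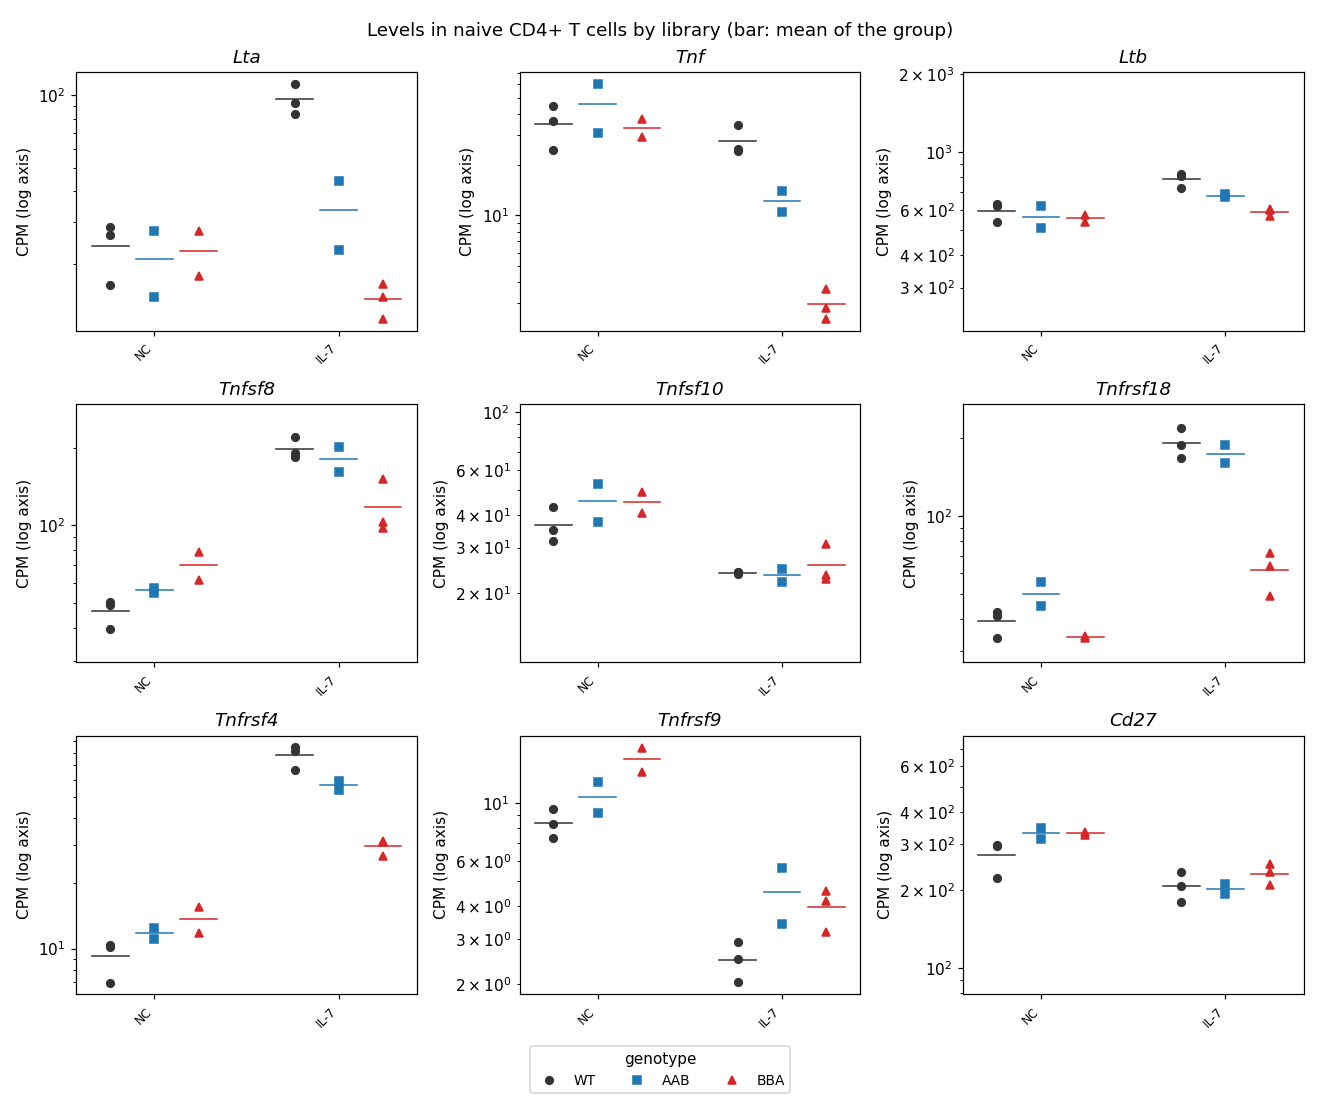
Level of each gene in CPM (log axis) in the naive CD4+ libraries with NC or IL-7, by genotype (circles WT, squares AAB, triangles BBA), with a line at each group's mean. With IL-7 all WT libraries lie above all BBA libraries for Lta, Tnf, Tnfsf8, Tnfrsf18 and Tnfrsf4, and with NC, where no member was called, the BBA libraries lie above the WT libraries for Tnfsf8 and Tnfrsf9.

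Between cell states of WT CD8+ T cells, 2 of 36 pairs were called, both in Tcm over Tnv with IL-15. Over all genes 2.68% were called in Tcm over Tnv with NC, 1.9% in Tem over Tcm with NC, 7.4% in Tcm over Tnv with IL-15 and 2.01% in Tem over Tcm with IL-15. Tnf was at 16.1 and 10.5 CPM in Tnv and 78.1 and 69.0 CPM in Tcm, a log2 difference of 2.36 ± 0.27 (SE, adjusted p = 0.00959), and Lta differed by 1.63 ± 0.22 (SE, adjusted p = 0.013). Without Tcm replicate 1 or 2 the adjusted p was 0.0968 or 0.0682 for Tnf and 0.119 or 0.0682 for Lta. Tem held 40.7 and 20.9 CPM of Tnf with IL-15, below both Tcm libraries, at a log2 difference of Tem over Tcm of -1.02 ± 0.25 (SE, adjusted p = 0.0883). Tnfsf10 was at 45.4 and 35.8 CPM in Tnv, 69.1 and 50.04 CPM in Tcm and 96.8 and 75.6 CPM in Tem with NC, and its difference of Tem over Tcm was 0.59 ± 0.20 (SE, adjusted p = 0.263).

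The transduced libraries went against their CD8+ T cell label. Cd8a was at 1.42 to 3.14 CPM and Cd3e at 2.84 to 14.7 CPM, against 712 to 2071 and 314 to 597 CPM in the CD8 table. Ncr1, Klrb1c and Klre1, genes known from natural killer cells, summed to 2018 and 1808 CPM with the empty vector and 2165 and 2171 CPM with CA-STAT5A, against at most 12.4 CPM in the CD8 table. The libraries are therefore called transduced cells here. Stat5a was at 8.35 and 3.17 CPM with the empty vector and 60.7 and 60.9 CPM with CA-STAT5A. Of the 8 members tested, 6 were called, all lower with CA-STAT5A, against 6.65% of all genes in either direction. Ltb was at 365 and 534 CPM with the empty vector and 54.3 and 72.0 CPM with CA-STAT5A, a log2 difference of -2.86 ± 0.23 (SE, adjusted p = 0.00382). Tnf was at 9.20 and 23.0 CPM against 3.21 and 1.29 CPM with CA-STAT5A (-2.81 ± 0.56, adjusted p = 0.0326) and Lta at 12.0 and 12.4 CPM against 3.70 and 2.58 CPM (-1.96 ± 0.28, adjusted p = 0.0127). For these 3 neighbouring genes the groups did not overlap.

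Tnfsf8 (-1.86 ± 0.34, adjusted p = 0.0267), Tnfsf10 (-1.90 ± 0.30, adjusted p = 0.0174) and Cd27 (-1.39 ± 0.21, adjusted p = 0.0154) were lower as well. Cd27 was at 222 and 187 CPM with the empty vector and 62.4 and 96.6 CPM with CA-STAT5A. Tnfrsf18, at 58.3 and 62.3 CPM with the empty vector and 60.1 and 59.9 CPM with CA-STAT5A, had a log2 difference of -0.03 ± 0.12 (SE, adjusted p = 0.918). Tnfrsf9 was higher in both CA-STAT5A libraries (114 and 105 against 61.5 and 81.3 CPM), but its log2 difference of 0.59 ± 0.15 (SE, adjusted p = 0.0722) did not pass. Tnfrsf4, at 2.68 and 2.36 CPM with the empty vector and 3.21 and 1.84 CPM with CA-STAT5A, was not tested. Lta, Ltb and Cd27 held without each library in turn, whereas the adjusted p without CA-STAT5A replicate 1 was 0.0983 for Tnfsf8 and 0.0741 for Tnfsf10, and without replicate 2 0.0762 for Tnf and 0.0756 for Tnfsf8. Sums over marker lists of other cell types moved with the vector. The 8 B cell markers summed to 229 and 184 CPM with the empty vector and 21.2 and 38.3 CPM with CA-STAT5A. The 3 T cell markers summed to 104 and 209.8 against 19.5 and 45.002 CPM, and the 4 regulatory T cell markers to 124 and 154 against 48.2 and 54.2 CPM. The 7 myeloid markers summed to 899.7 and 720.3 against 1666 and 1459 CPM. A sum does not tell other cells from the same genes within the transduced cells. No marker of these lists was at 0, and their part in the lower Ltb, Cd27 and other members was not tested.

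**Figure D5:**
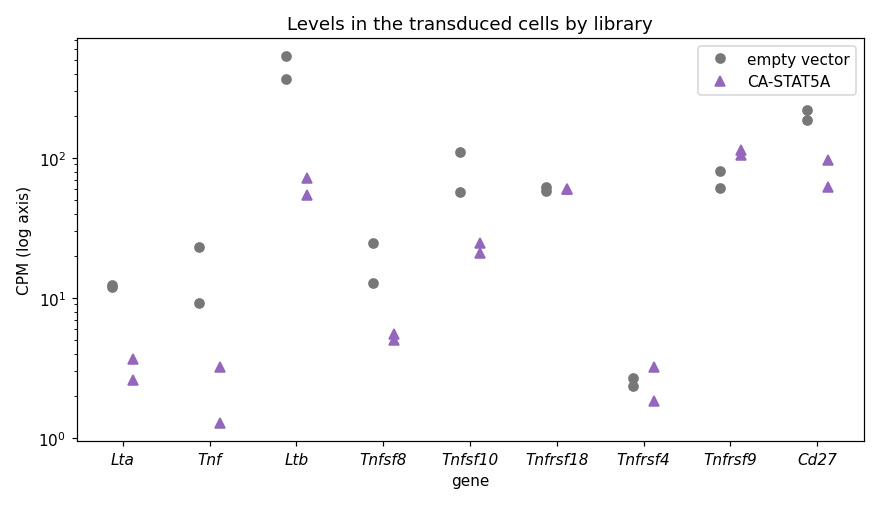
Level of each gene in CPM (log axis) in the 2 empty vector libraries (circles) and the 2 CA-STAT5A libraries (triangles). The CA-STAT5A libraries are below both empty vector libraries for Lta, Tnf, Ltb, Tnfsf8, Tnfsf10 and Cd27, level with them for Tnfrsf18 and above them for Tnfrsf9.

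The members are a small part of the superfamily, and 37 other genes of it, 13 ligands and 24 receptors, were examined in the same fits. Between WT and BBA in CD8+ T cells, 1 of their 116 tested pairs was higher and 7 were lower in WT, while the members had 11 higher and 0 lower. The members and lists were chosen with earlier results of these data known, so this contrast is a description only. By condition the other genes called were 4 of 14 in Tcm with IL-15 (28.6%, against 23.7% of all genes), 2 of 14 in Tnv with IL-15 (14.3%, against 9.43%), 1 of 11 in Tnv with NC and 1 of 15 in Tcm with IL-7, and the share in Tcm with IL-15 was near that of all genes. Fas, the gene of the Fas death receptor, was lower in WT in Tnv with NC (-0.98 ± 0.13, adjusted p = 0.0096) and in Tcm with IL-15 (-0.74 ± 0.12, adjusted p = 0.00368). Tnfrsf10b, a receptor of TRAIL, was lower in WT with IL-15 in Tnv (-2.23 ± 0.35, adjusted p = 0.00899) and Tcm (-1.43 ± 0.28, adjusted p = 0.00717). Tnfrsf11a, the gene of RANK, in Tnv with IL-15 (-3.02 ± 0.45, adjusted p = 0.00779) and Tnfrsf13c, a receptor known from B cells, in Tcm with IL-15 (-1.20 ± 0.35, adjusted p = 0.0303) were lower too. There the 8 B cell markers summed to 142 and 259 CPM in WT and 259.6 and 513 CPM in BBA, and their part in the Tnfrsf13c difference was not tested. The median log2 difference in Tcm with IL-15 was 0.13 for the 9 members, -0.22 for the 14 other genes tested and -0.02 for all genes.

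In the WT response of CD8+ T cells, 6 of 83 tested pairs of the other family genes were higher with cytokine and 5 lower. These were 6 of 13 in Tnv with IL-7 (46.2%, against 20.2% of all genes), 3 of 13 in Tnv with IL-15 (23.1%, against 6.18%) and 2 of 15 in Tem with IL-15 (13.3%, against 1.55%), and none in Tcm. Tnfrsf26 rose in Tnv with IL-7 (1.58 ± 0.09, adjusted p = 0.000176), Tnv with IL-15 (1.31 ± 0.09, adjusted p = 0.00155) and Tem with IL-15 (1.20 ± 0.12, adjusted p = 0.0217), and Tnfrsf25, the gene of death receptor 3, in Tnv with IL-7 (1.09 ± 0.29, adjusted p = 0.0268) and IL-15 (1.21 ± 0.29, adjusted p = 0.0454). Relt fell in Tnv with IL-7 (-1.44 ± 0.08, adjusted p = 0.000176) and IL-15 (-0.73 ± 0.08, adjusted p = 0.00433), and Tnfrsf13c in Tnv with IL-7 (-2.32 ± 0.49, adjusted p = 0.0123). The B cell markers summed to 72.7 and 194 CPM with NC and 20.0 and 10.5 CPM with IL-7 in these libraries, and their part in the lower Tnfrsf13c was not tested. In CD4+ cells with IL-7, 3 of 17 were higher and 4 lower (41.2% called, against 16.8% of all genes), among them Tnfrsf26 (2.102 ± 0.08, adjusted p = 1.03e-06), Tnfrsf19 (-3.21 ± 0.78, adjusted p = 0.0122), Tnfsf11, the gene of RANK ligand (-1.75 ± 0.59, adjusted p = 0.0481), and Relt (-1.47 ± 0.13, adjusted p = 6.91e-05). In the response of BBA minus that of WT in CD8+ T cells, 2 of 78 tested pairs were called, Tnfrsf25 and Tnfrsf10b, both higher in BBA. They were 1 of 14 in Tnv with IL-15 (7.14%, against 2.61% of all genes) and 1 of 15 in Tcm with IL-15 (6.67%, against 7.8%). Between states with NC, Tnfsf4, the gene of OX40 ligand (5.01 ± 0.89, adjusted p = 0.0405), and Tnfsf14 (3.18 ± 0.28, adjusted p = 0.0032) were higher in Tcm than in Tnv, and Fasl, the gene of Fas ligand (2.31 ± 0.40, adjusted p = 0.0419), and Cd40lg, the gene of CD40 ligand (2.32 ± 0.33, adjusted p = 0.0235), higher in Tem than in Tcm. In the transduced cells Ltbr, which encodes the receptor of the lymphotoxin-α and -β complex, was lower with CA-STAT5A (-4.18 ± 0.54, adjusted p = 0.00886), as were Tnfrsf25 (-2.69 ± 0.40, adjusted p = 0.0146), Tnfrsf21 (-2.60 ± 0.20, adjusted p = 0.00382) and Tnfrsf26 (-1.54 ± 0.24, adjusted p = 0.0158), while Fasl was higher (1.04 ± 0.15, adjusted p = 0.0127). They are the 5 called of 18 tested (27.8%, against 6.65% of all genes). Marker sums of other cell types moved with the vector too, and their part in these differences was not tested.

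Downstream of the receptors, 30 genes of TRAF, NF-κB and death domain signalling were examined. Between WT and BBA in CD8+ T cells 2 of 240 pairs were higher and 7 lower in WT, all in Tcm with IL-15. These 9 of the 30 genes are 30.0% of them, near the 23.7% of all genes called in that condition. There the NF-κB inhibitors Tnfaip3 (-1.22 ± 0.18, adjusted p = 0.00223) and Nfkbie (-0.68 ± 0.12, adjusted p = 0.005) and the kinase gene Map3k14 (-0.72 ± 0.11, adjusted p = 0.00316) were lower in WT, and Nfkbiz (0.68 ± 0.17, adjusted p = 0.0202) was higher. Their median log2 difference was -0.14 against -0.02 for all genes. In CD4+ cells with IL-7, Casp8 (0.78 ± 0.10, adjusted p = 0.00183) and Nfkbiz (0.93 ± 0.11, adjusted p = 0.00093) were higher in WT than in BBA. These 2 of 30 genes are 6.67%, near the 5.55% of all genes called there. Tnip1 was lower in WT than in AAB with NC (-0.64 ± 0.08, adjusted p = 0.0212) and with IL-7 (-0.76 ± 0.08, adjusted p = 0.00347). It was the 1 of 30 called in each (3.33%, against 0.374% of all genes with NC and 0.628% with IL-7). Tnfaip3 fell with cytokine in WT Tnv, at -2.35 ± 0.39 (SE, adjusted p = 0.00542) with IL-7 and -2.63 ± 0.39 (SE, adjusted p = 0.012) with IL-15, and in CD4+ cells with IL-7 (-1.86 ± 0.24, adjusted p = 0.000446). The signalling genes called were 3 of 30 in Tnv with IL-7 (10%, against 20.2% of all genes) and 1 of 30 with IL-15 (3.33%, against 6.18%). In CD4+ cells with IL-7 they were 4 of 30 (13.3%, against 16.8%), so each share was under that of all genes. The response of Relb in Tnv with IL-7 was lower than in WT in both BBA (-1.10 ± 0.18, adjusted p = 0.0163) and AAB (-1.11 ± 0.18, adjusted p = 0.0397), 2 comparisons that share the WT libraries, and Nfkb2 was lower in BBA (-1.27 ± 0.25, adjusted p = 0.031). In Tcm with IL-15 the responses of Traf1 and Nfkbia were higher in BBA than in WT. These 2 of 30 genes are 6.67%, near the 7.8% of all genes called there. Over all CD8 conditions 2 of 150 pairs were higher and 3 lower in BBA. The 3 lower were 2 of 30 genes in Tnv with IL-7 (6.67%, against 2.45% of all genes) and 1 of 30 in Tnv with IL-15 (3.33%, against 2.61%). For AAB, Relb was the 1 of 30 called in Tnv with IL-7 (3.33%, against 0.292%).

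Across the means of the 24 CD8 groups, the pattern of Lta was most like that of Tnf among the members (Pearson's r = 0.753 of the log2 levels), and that of Tnfrsf18 most like that of Tnfsf8 (0.724). Between Lta and Ltb, which are neighbours too, r was 0.456, and between Tnfrsf18 and its neighbour Tnfrsf4 it was 0.353. The groups share cell states and cytokines, so these values are descriptions only. Among all genes with a mean of at least 50 counts, those closest to Tnf were Mthfd2 (0.897), Slc39a11 (0.888) and Mogs (0.883), those closest to Tnfrsf18 were Rabgap1l (0.889), Tnfaip1 (0.888) and Phc3 (0.886), and those closest to Lta were 3110082I17Rik (0.811), Zfp609 (0.807) and P2ry10 (0.799). Tnfrsf9 was closest to Irf4 (0.891), Nr4a2 (0.870) and Mxd4 (0.832). Tnfsf8 was closest to Srsf1 (0.914), Smarcc1 (0.913) and Sec24a (0.911), and Tnfrsf4 to Amigo1 (0.832), Cmtm4 (0.831) and Gnaq (0.825). The closest to Ltb were Rasgrf2 (0.847), Orai1 (0.838) and Man2c1 (0.819), to Tnfsf10 Sntb2 (0.911), 1190002N15Rik (0.911) and Rab8b (0.890), and to Cd27 Hdac10 (0.917), Ly9 (0.903) and Abi3 (0.903).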

How the data were processed

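RNA-seq of sorted mouse T cells was deposited as tables of raw counts per gene: the authors aligned single-end reads of 50 bases with TopHat2 and counted them with HTSeq, per the labels and methods. The labels name mm9 and the methods mm10 as the build, and strand settings are not given in the sources used here. In the 4 transduced libraries 67.0 to 68.4% of the deposited counts were in rows that name no gene, and these stayed out of library sizes and tests. Genes with low counts were removed by a Jaccard filter after HTSFilter (100 thresholds from 1 to 200 normalized counts). Counts were scaled by TMM and tested with edgeR 4.0.16's quasi-likelihood test in R 4.3.3, within cell state and condition, with Benjamini-Hochberg adjustment over all genes tested. A call needs more than 1.5-fold and an adjusted p under 0.05. The standard error is the log2 fold change divided by the square root of F. DESeq2 1.42.0, other filters and scalings, 1 fit over all libraries of a table, a replicate block and leaving out each library were tried as alternatives. The code was tested on simulated data. All 9 members were examined in each comparison, and those called are named there with some of the others. Up to 4 other family genes and up to 4 signalling genes are named per kind of comparison (called in the most conditions, then by largest change). Fasl in the transduced cells is named in addition. The 3 genes most like each member over the CD8 group means of log2(CPM + 1) are named too. The members and lists were chosen with earlier results of these data known. None of 38 replicate pairs agreed within counting noise (chi-square over its degrees of freedom, 5.50 to 93.2). Of 69 samples, 2 have conflicting labels and enter no comparison.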

Additional observations from a re-analysis of the deposited data

Results flagged for a closer look

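A difference in response between genotypes, tested as an interaction in edgeR, passed the threshold for 14 values, and the difference of the BBA effect between cytokines for 2. On the log2 scale the response of BBA minus that of WT in CD8+ Tnv with IL-7 was -3.47 for Lta, -2.40 for Tnf and -1.26 for Tnfrsf18, and in Tnv with IL-15 -1.37 for Tnfsf8. In Tcm with IL-15 it was -2.48 for Lta, -3.09 for Tnf and -1.04 for Tnfrsf18. In CD4+ cells with IL-7 it was -2.69 for Lta, -3.15 for Tnf, -1.35 for Tnfsf8, -1.43 for Tnfrsf18 and -1.99 for Tnfrsf4. For AAB minus WT, Lta had -2.71 in Tnv under IL-7 and -2.41 in Tcm under IL-15. The BBA effect in Tnv under IL-15, less that under IL-7, was -2.74 for Lta and -2.19 for Tnfrsf9. Their adjusted p-values and the libraries they depend on stand beside each result above.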

How the results depend on the processing

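Of 65 member calls, 53 were kept under every alternative other than the 2-fold limit, which kept 56 (50 under all of them), and 35 without each library in turn. All 65 were kept with edgeR's own filter on low counts, no filter, DESeq2's size factors and DESeq2, 64 with edgeR's newer dispersion estimate, 48 of 59 in 1 fit over a table, and all 6 of the transduced cells with a sex term, which was chosen after seeing the data. The counts of member calls moved by more than 1.5 times as follows, and the cause was not tested. With no filter they were 24 (WT against BBA, CD8, from 11), 15 (WT against AAB, CD8, from 5), 8 (AAB against BBA, CD8, from 3), 2 (WT against AAB, CD4, from 1), 18 (WT response, CD8, from 7), 5 (response of AAB minus WT, from 2) and 6 (cell states, from 2). With DESeq2 the same comparisons gave 22, 12, no such move, 2, 12, 4 and 4, and AAB against BBA in CD4+ cells gave 5 (from 3). One fit gave 17 for WT against BBA and 13 for the WT response in CD8, and 1 (from 2) for IL-15 minus IL-7, and a limit of 2-fold gave 2 for WT against AAB in CD8.

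Same-numbered replicates are not said to share an animal or day. Their deviations correlated by -0.0553 to 0.724 in CD8 (over 0.1 in 22 of 24 pairs) and 0.0926 to 0.438 in CD4 (5 of 6). With the number as a replicate block the calls were 19 for WT against BBA, 11 for WT against AAB and 6 for cell states in CD8, 2 for WT against AAB in CD4 and 4 for the response of AAB minus WT, and 58 of 59 calls were kept, Tnfsf10 in CD4+ cells with IL-7 falling just under 1.5-fold at -0.58. The block added 30 calls in all, at log2 values of 0.72 (Tnfsf8, Tnv with IL-7), 0.62 (Tnfrsf18, Tcm with NC), -1.47 (Tnfrsf4, Tem with NC) and, in Tem with IL-15, 1.04 (Lta), 2.45 (Tnf), 0.71 (Tnfsf8), 1.17 (Tnfrsf18) and -1.11 (Tnfrsf9) for WT over BBA, and 2.52 (Lta, Tnv with IL-7), 0.64 (Tnfrsf18, Tnv with IL-7), 1.11 (Lta, Tnv with IL-15), -1.21 (Tnfrsf4, Tem with NC), 1.29 (Tnf) and 0.69 (Tnfrsf18, Tem with IL-15) and 1.26 (Tnf, CD4) for WT over AAB. Of the others, 3 were WT responses of Tem to IL-15, 8 differences in response and 4 differences between Tem and Tcm. In the transduced cells 1 empty vector library carries no number, so no block by number was fitted, and the sex term above, with 1 male and 1 female library per vector, is the only pairing there.

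Leaving out 1 library at a time gave 9 to 15 calls for WT against BBA, 3 to 7 for WT against AAB and 1 to 4 for AAB against BBA in CD8, 4 to 5, 0 to 2 and 3 to 4 in CD4, 5 to 15 for the WT response in CD8 and 5 to 6 in CD4, 9 to 13 for BBA minus WT, 1 to 4 for AAB minus WT, 0 to 7 for IL-15 minus IL-7, 0 to 3 for cell states and 4 to 7 for the transduced cells. Members that passed no test changed direction in Tcm with IL-7, where the WT libraries were widely spread. Tnfsf8 (WT over BBA) became -0.0937 with the block and -0.0277 with a sex term, and -0.96 to 0.64 with 1 library left out. Tnfrsf18 (WT over AAB) became -0.18 and -0.0365, and -1.07 to 0.62. With 1 library left out, Tnfsf8 ran from -1.34 to 0.26 (WT over AAB) and from -0.26 to 1.34 (response of AAB minus WT), and Tnfrsf18 from -0.15 to 1.54 (the same response) and from -0.13 to 1.52 (IL-15 minus IL-7). The WT response ran from -0.0862 to 1.701 for Lta, -0.15 to 1.52 for Tnfrsf18 and -2.16 to 0.21 for Tnfrsf9, and in Tnv with IL-15 from -0.26 to 0.602 for Tnfsf10. With DESeq2's size factors 39 of 288 group levels moved by 1 SD or more, at 0.906 to 1.16 times the level.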

Other observations

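Naive CD4+ libraries of AAB and BBA, 1 of each, are titled as taken without cytokine and labelled as treated with IL-7, so they are in no group. The AAB and the BBA library held, in this order, 14.6 and 32.7 CPM of Lta, 556 and 518 CPM of Ltb, 32.9 and 30.3 CPM of Tnf, 51.3 and 42.2 CPM of Tnfsf8 and 37.8 and 29.3 CPM of Tnfsf10. For the receptors the values were 43.8 and 32.3 CPM of Tnfrsf18, 12.2 and 13.6 CPM of Tnfrsf4, 15.1 and 26.4 CPM of Tnfrsf9 and 271 and 331 CPM of Cd27.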
